A study of Mus musculus with 6 samples.

Results

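The SOX genes encode transcription factors that bind DNA through a domain called the HMG box. The genes examined were *Sox4*, *Sox5*, *Sox6*, *Sox9*, *Sox11*, *Sox12*, *Sox13*, *Sox17*, *Sox18* and *Sox21*, 10 of the 23366 genes in the count tables, and they were chosen by name. RNA-sequencing was performed on small intestine epithelium of E13.5 embryos, with 3 wild type libraries and 3 libraries, called mutant, of the genotype *Shh-cre-egfp:Tcf7l1 lox/lox*, none of them treated. In the mutants, the *Shh* locus drives Cre, which removes floxed sequence of *Tcf7l1* in gut epithelium, whereas the labels give no Cre allele for the wild type embryos. Each library was made from 500 cells sorted for EpCAM, an adhesion protein found on epithelia. Counts below are TMM-normalized read counts, in which differences in library size and composition are removed, unless raw counts are named.

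The total count lay between 18216537 and 20397278 in the 6 libraries. *Tcf7l1* was at 364 to 476 in the wild types and at 33.0 to 73.0 in the mutants (log2 fold change -3.16, edgeR adjusted p = 4.2e-07), which fits the genotypes on the labels. *Shh*, whose locus carries Cre, averaged 481 ± 65.8 in the wild types and 198 ± 22.6 in the mutants (mean ± SD, n = 3). *Xist*, the RNA that silences an X chromosome, had 0 raw counts in every wild type and 229 to 424 in the mutant libraries, while 4 Y-linked genes together had 4952 to 5293 and 0. The sex of the embryos, the Cre allele and the lower *Shh* therefore cannot be told apart from the loss of *Tcf7l1* in any comparison. Of 12 epithelial marker genes, all were tested, and *Epcam* had 51446 to 60192 raw counts per library. The summed level of these markers, in CPM (counts scaled to the size of the library), was 8312 to 8760 for wild types and 7935 to 8132 for mutants. By the criteria given below, *Cdh1*, *Krt18*, *Cdx2*, *Shh* and *Ihh* were called lower in the mutants, beside 5.83% of all tested genes.

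SOX proteins are grouped by sequence. *Sox4*, *Sox11* and *Sox12* form the SOXC group, known for roles in progenitor cells. *Sox5*, *Sox6* and *Sox13* form the SOXD group, whose proteins lack a transactivation domain of their own and, in cartilage, act with the SOXE protein SOX9. *Sox17* and *Sox18* are SOXF genes, known for roles in endoderm and in blood and lymph vessels, and *Sox21* is a SOXB2 gene whose protein acts mainly as a repressor. In the intestine, SOX9 marks stem and progenitor cells, is needed for Paneth cells and is encoded by a target gene of WNT signalling. TCF7L1 also binds DNA through an HMG box and mainly represses WNT target genes.

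Promoter sequences of 7 of the 10 genes were found in RefSeq for the build GRCm38.p6, as 250 bases before and 50 bases after a transcription start. *Sox9*, *Sox17* and *Sox18* had no entry. The sequences were searched on both strands for the TCF/LEF words CTTTGAA and CTTTGAT, which 8.65% of all 32851 promoters of this length hold, and for the SOX word AACAAT, which 10.7% hold. The words were picked with the sequences in view, and no matches overlapped. No word was found in the promoters of *Sox4*, *Sox5*, *Sox11*, *Sox12*, *Sox13* and *Sox21*. Of 6 promoters of *Sox6*, 3 held a TCF/LEF word and another held 2 SOX words. The promoters of *Sox5*, *Sox12* and *Sox21*, whose counts were lower in every mutant library, of *Sox11*, whose counts were higher in every one, and the *Sox6* promoter with the TCF/LEF word nearest to its start, whose first base lies at position -64, follow. Capitals mark the word found, and they say nothing of whether a factor binds there.
Sox5 promoter (chr6:143947057-143947356, minus strand): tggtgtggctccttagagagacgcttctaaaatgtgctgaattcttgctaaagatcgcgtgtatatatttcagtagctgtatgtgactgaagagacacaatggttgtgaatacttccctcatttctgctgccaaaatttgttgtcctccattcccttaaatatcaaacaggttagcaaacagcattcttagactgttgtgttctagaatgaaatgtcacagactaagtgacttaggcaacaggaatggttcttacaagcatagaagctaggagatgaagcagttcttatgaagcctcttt
Sox12 promoter (chr2:152397997-152398296, minus strand): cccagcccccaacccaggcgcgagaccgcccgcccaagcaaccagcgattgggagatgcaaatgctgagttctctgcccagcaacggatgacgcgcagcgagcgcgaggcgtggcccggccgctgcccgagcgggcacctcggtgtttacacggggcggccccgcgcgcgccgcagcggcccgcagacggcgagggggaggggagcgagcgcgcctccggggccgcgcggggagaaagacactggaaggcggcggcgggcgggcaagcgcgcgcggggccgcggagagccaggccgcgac
Sox21 promoter (chr14:118236981-118237280, minus strand): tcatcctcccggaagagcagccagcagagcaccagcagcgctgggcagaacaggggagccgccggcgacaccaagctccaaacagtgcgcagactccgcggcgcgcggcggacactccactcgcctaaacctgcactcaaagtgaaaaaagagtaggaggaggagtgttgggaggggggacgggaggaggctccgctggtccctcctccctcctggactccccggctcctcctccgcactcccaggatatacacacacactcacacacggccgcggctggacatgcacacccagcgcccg
Sox11 promoter (chr12:27342669-27342968, minus strand): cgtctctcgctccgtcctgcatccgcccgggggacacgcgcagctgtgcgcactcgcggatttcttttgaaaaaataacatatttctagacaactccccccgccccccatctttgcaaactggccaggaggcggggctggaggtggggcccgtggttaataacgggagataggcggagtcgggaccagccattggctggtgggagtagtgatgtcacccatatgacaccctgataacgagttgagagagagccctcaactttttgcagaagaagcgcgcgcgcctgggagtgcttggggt
Sox6 promoter (chr7:115995037-115995336, minus strand): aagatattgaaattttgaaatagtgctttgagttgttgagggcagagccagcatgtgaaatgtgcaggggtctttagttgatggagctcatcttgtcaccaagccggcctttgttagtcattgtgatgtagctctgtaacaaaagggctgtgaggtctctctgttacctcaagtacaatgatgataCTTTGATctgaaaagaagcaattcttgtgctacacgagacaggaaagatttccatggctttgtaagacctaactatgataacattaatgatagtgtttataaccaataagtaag
Of the bases in these windows, 39.7% were G or C for *Sox5*, 76.7% for *Sox12*, 65.7% for *Sox21* and 58.7% for *Sox11*. *Sox5* has 14 transcripts in the mm9 annotation, so its window need not be its only promoter. On the minus strand the gene begins at 144730497 of mm9, and the window lies at 143947057 to 143947356 of GRCm38. Positions differ between the builds, but this window may be an internal start of a shorter transcript. Its words and its G and C content therefore need not describe the first start of *Sox5*.

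Levels of different genes were compared per transcript length, as RPKM on the TMM-scaled libraries. In wild type libraries *Sox9* had the highest RPKM, 39.7 ± 6.07 (SD, n = 3), above 79.2% of the tested genes, and *Sox11* followed at 36.6 ± 2.41. The annotation gives *Sox11* a single exon of 2013 bases, and the length of the gene model used for counting was not available here. A longer model would lower the RPKM of *Sox11*, so its place beside *Sox9* is uncertain. *Sox4* was at 3.53 ± 1.23, *Sox12* at 2.11 ± 0.492, *Sox13* at 1.78 ± 0.751, *Sox18* at 1.35 ± 0.777 and *Sox6* at 1.06 ± 0.0682 RPKM. From *Sox9* to *Sox11* and from *Sox4* down to *Sox6*, neighbours in this order overlapped in the values of single libraries. Below *Sox6*, *Sox5* at 0.663 ± 0.164 RPKM, *Sox21* at 0.334 ± 0.0812 and *Sox17* at 0.0256 ± 0.0443 each lay under the gene before it in this order, with no overlap between libraries. In mutant libraries *Sox11* had 47.8 ± 3.83 RPKM and *Sox9* 24.2 ± 0.769, and *Sox18* and *Sox21* were at 0.067 ± 0.0893 and 0.0295 ± 0.0298.

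**Figure D1:**
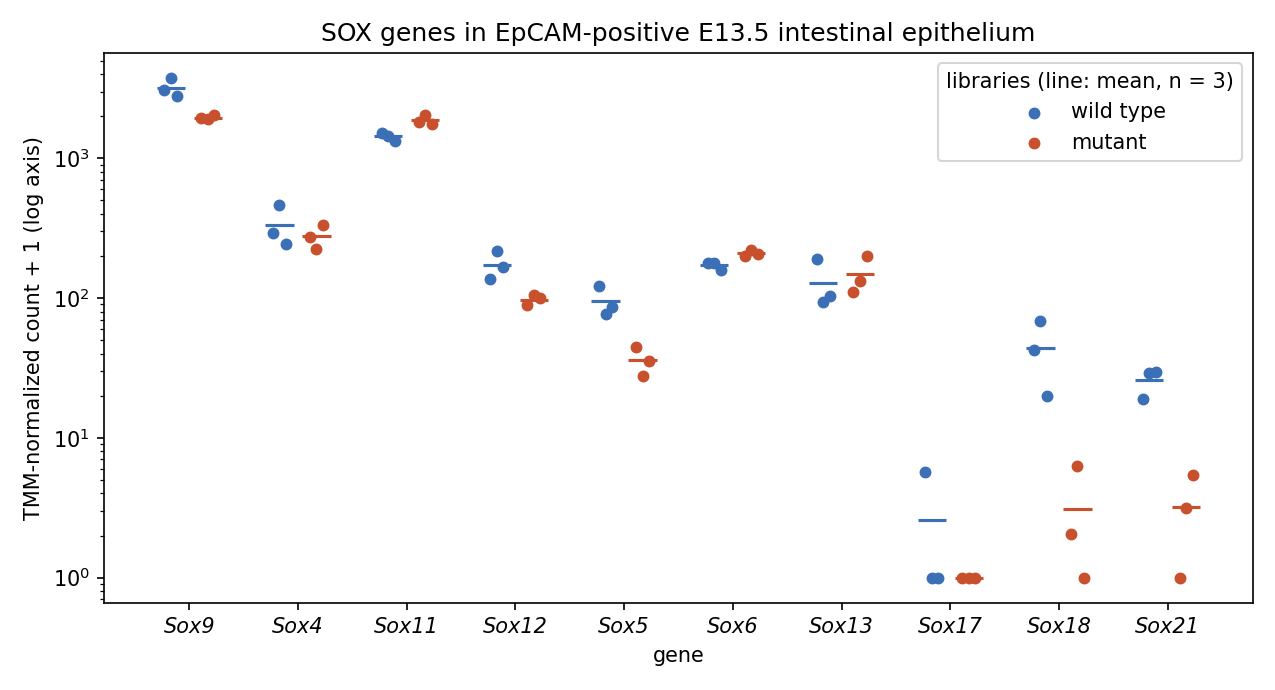
TMM-normalized counts plus 1 (log axis) of the 10 SOX genes in 3 wild type (blue) and 3 mutant (orange) libraries, with 1 point a library and a line at the mean. *Sox9*, *Sox12*, *Sox5*, *Sox18* and *Sox21* are lower in all mutant than in all wild type libraries, *Sox11* and *Sox6* are higher, *Sox4* and *Sox13* overlap, and *Sox17* is at or near 0 counts.

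To ask which SOX genes differ with the loss of *Tcf7l1*, the groups were compared by edgeR's quasi-likelihood test over 12501 genes with Benjamini-Hochberg adjustment. Calls needed an adjusted p below 0.01, a log2 fold change of 0.5 or more in size and a mean count of 50 or more. Of the 10 SOX genes, 2 were called lower, *Sox9* and *Sox5*, beside 5.83% of all tested genes called lower. Of the others 0 were called higher, beside 2.78% of all genes. At an unadjusted p under 0.05 from edgeR, 1 of the SOX genes, *Sox11*, was higher and 5 were lower. The share of all genes at that level was not counted. Either call was made for 8.62% of tested genes. DESeq2 also called 2 SOX genes lower and 0 higher, beside 789 lower and 410 higher of the 17112 genes it was given. By adjusted p alone, 4 were lower and 1 higher at 0.01, beside 7.61% and 7.32% of all genes. The groups did not overlap, with lower values in the mutants, for 5 genes (22.2% of all tested genes), and with higher values for 2 (20.8%). *Sox17* was removed by the low-count filter. *Sox18* and *Sox21* passed it only through the wild type libraries, the group in which they were higher, so their passing is no support for a difference.

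*Sox9* (ENSMUSG00000000567) lies on the plus strand of chromosome 11, chr11:112643538-112649074 of mm9, with 3 exons. Its counts were 3060, 3751 and 2805 in wild types 1, 2 and 3, against 1937, 1904 and 2024 in mutants 1, 2 and 3. All mutant libraries lay below all wild type libraries, and they spread less, with a coefficient of variation of 3.18% against 15.3%. The mean fell from 3205 ± 490 to 1955 ± 62.1, which is 1.64-fold lower. The log2 fold change was -0.71 (SE 0.10, edgeR adjusted p = 8.4e-05). In bulk libraries, fewer cells that express a gene and less of its RNA per cell cannot be told apart. *Sox9* was called under each alternative tried, with log2 fold changes from -0.82 to -0.56, the smallest with a correction for gene length.

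Of all tested autosomal genes, those whose log2 CPM was most like *Sox9* over the 6 libraries were *Gtf2i*, which encodes a general transcription factor, *Krt7*, a keratin of simple epithelium, and *Kifc3*, a kinesin. Their Pearson r with *Sox9* was 0.997, 0.997 and 0.996. The libraries fall into the groups, so that this likeness reflects mostly the difference between them, and it is given as a description. The 3 genes had log2 fold changes of -0.56, -0.56 and -0.89.

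Among the SOXC genes, *Sox11* (ENSMUSG00000063632, minus strand, chr12:28025562-28027574) had 1525, 1450 and 1336 in wild types 1, 2 and 3, against 1825, 2049 and 1762 in mutants 1, 2 and 3. Every mutant library was above every wild type library. The means were 1437 ± 94.9 and 1879 ± 151 (log2 fold change 0.39, SE 0.09, adjusted p = 0.0063 by edgeR), 1.31-fold higher, which is under the fold change set for a call. The adjusted p passed 0.01 with RLE normalization, DESeq2, both other filters on low counts and without wild type 3. It was 0.0105 with a gene-length correction, 0.0124 with a replicate block, and 0.039 when only library size was scaled for. With wild type 1 or 2 left out it was 0.014 and 0.0218, and with mutant 1, 2 or 3 left out it was 0.0201, 0.0428 and 0.0132. The log2 fold change was above 0 in each of these.

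The ratio of *Sox9* to *Sox11*, formed within each library and chosen after the values were seen, does not depend on the scaling of the libraries. It was 2.01, 2.59 and 2.10 in wild types 1, 2 and 3, against 1.06, 0.929 and 1.15 in mutants 1, 2 and 3. The means, 2.23 ± 0.312 and 1.05 ± 0.110, gave p = 0.1 in an exact permutation test, 2-sided, and no lower p is possible with 3 libraries against 3. Because *Sox9* and *Sox11* had each separated the groups, in opposite directions, this p was fixed beforehand and adds no support. *Sox9* gave 55.0% to 59.4% of the raw counts of the 10 genes in the wild types and 40.8% to 43.4% in the mutants. The share of *Sox11* was 23.0% to 27.4% in the wild types and 37.8% to 43.9% in the mutants. These reads are not corrected for length, so they compare the libraries and not the genes.

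**Figure D2:**
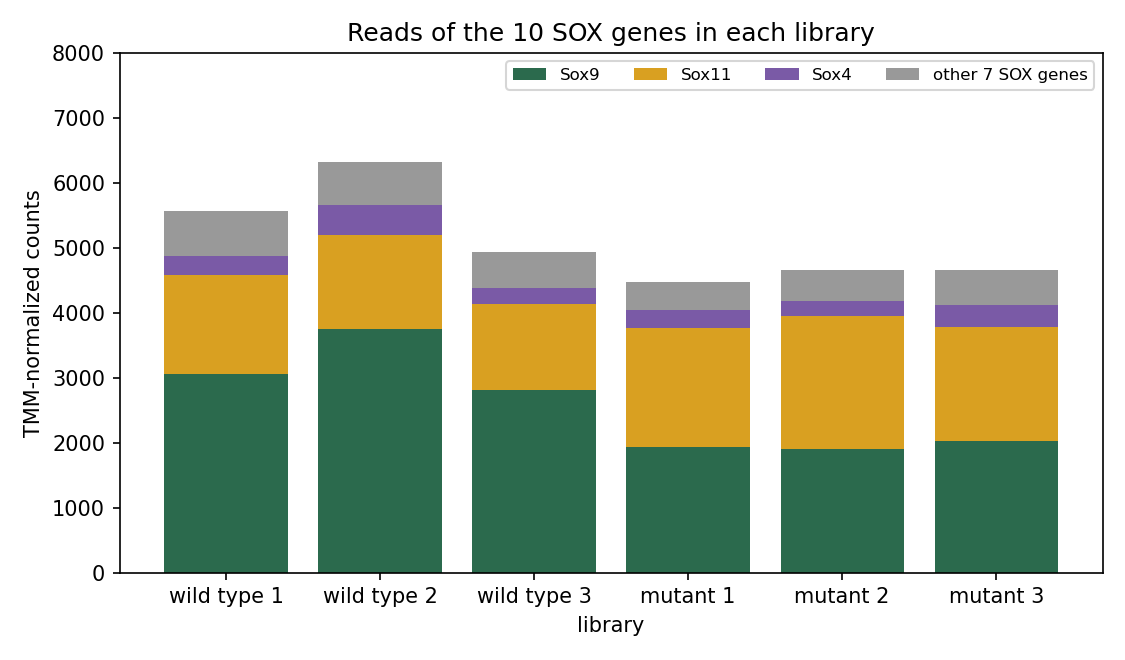
TMM-normalized counts of the 10 SOX genes stacked for each of the 6 libraries, with *Sox9* in green, *Sox11* in yellow, *Sox4* in purple and the other 7 genes in grey. The *Sox9* segment is 2805 to 3751 counts high in the wild types and 1904 to 2024 in the mutants, and the *Sox11* segment 1336 to 1525 and 1762 to 2049.

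*Sox12* (ENSMUSG00000051817, minus strand, chr2:152219347-152223782) had 135, 214 and 165 in wild types 1, 2 and 3, against 88.0, 103 and 98.5 in mutants 1, 2 and 3. The groups did not overlap, and the means were 172 ± 40.1 and 96.6 ± 7.81 (log2 fold change -0.83, SE 0.24, adjusted p = 0.0187 by edgeR), so *Sox12* was not called. *Sox4* (ENSMUSG00000076431, minus strand, chr13:29040788-29045582), which is known to promote secretory cell types in the adult gut, had 289, 460 and 241 in the wild types, against 274, 224 and 330 in mutants 1, 2 and 3. Its groups overlapped, with means of 330 ± 115 and 276 ± 53.0 (log2 fold change -0.26, SE 0.23, adjusted p = 0.42). Without wild type 2, the highest library, its log2 fold change was 0.057. Exons of *Gm17419*, on the opposite strand, overlap 54.6% of the exon bases of *Sox4*, and whether reads were counted by strand is not stated.

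Among the SOXD genes, *Sox5* (ENSMUSG00000041540, minus strand, chr6:143776945-144730497) had 120, 76.4 and 84.6 in wild types 1, 2 and 3, against 43.5, 26.6 and 34.3 in mutants 1, 2 and 3. All mutant libraries were below all wild type libraries. The mean fell from 93.7 ± 23.2 to 34.8 ± 8.44, which is 2.68-fold lower. The log2 fold change was -1.42 (SE 0.35, edgeR adjusted p = 0.0076). The direction held in each alternative, but the call was lost in every fit that left out a library. With wild type 1, 2 or 3 left out the adjusted p was 0.0595, 0.0144 and 0.0105, and with mutant 1, 2 or 3 left out it was 0.0124, 0.0326 and 0.0221. Of its exon bases, 9.25% also lie in exons of *4933415D12Rik*, which runs antisense.

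*Sox6* (ENSMUSG00000051910, minus strand, chr7:122614858-123182258) had 177, 176 and 158 in the wild types, against 199, 220.4 and 207 in mutants 1, 2 and 3. The groups did not overlap but lay close together, with means of 170.4 ± 11.0 and 209 ± 10.9 (log2 fold change 0.29, SE 0.19, adjusted p = 0.27 by edgeR). *Sox13* (ENSMUSG00000070643, minus strand, chr1:135278880-135320954) had 190.4, 92.3 and 102 in wild types 1, 2 and 3, against 109, 131 and 200.2 in mutants 1, 2 and 3. Its groups overlapped, with means of 128 ± 54.1 and 147 ± 47.7 (log2 fold change 0.19, SE 0.30, adjusted p = 0.67), and without mutant 3 its log2 fold change was -0.096.

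The highest *Sox13* libraries of each group, wild type 1 and mutant 3, also held more reads of single mesenchymal or neural crest genes. *Dcn*, a matrix gene of fibroblasts, had 83, 0 and 3 raw counts in wild type 1, 2 and 3. *Ednrb*, an endothelin receptor of neural crest cells, had 136 raw counts in mutant 3 and 1 to 18 in the other mutants, and *Acta2*, of smooth muscle, had 442 against 92 and 161. Of 13 mesenchyme genes in the tables, 5 were tested, and their summed level was 68.1 to 83.2 CPM for wild types and 53.8 to 77.1 for mutants. Most of that sum was *Vim*, and the mutant 3 value also held the *Acta2* counts. The median log2 fold change of the 5 tested genes was -0.97, with 4 below 0 and 0 called. *Vim*, an intermediate filament gene, had 1257, 1490 and 1250 raw counts in wild types 1, 2 and 3, against 881, 811 and 870 in mutants 1, 2 and 3 (log2 fold change -0.46, edgeR adjusted p = 0.0049). *Col3a1*, a fibrillar collagen gene, had 45, 40 and 11 against 8, 6 and 4 (-2.21, adjusted p = 0.026). *Pdgfra*, a receptor gene of fibroblasts, had 23, 6 and 21 against 0, 0 and 1 and was not tested. For these 3 genes every mutant library was below every wild type library, as for *Sox9*, *Sox5*, *Sox12*, *Sox18* and *Sox21*, and as for 22.2% of all tested genes. *Acta2*, the 1 tested gene above 0, had 74, 113 and 92 raw counts in wild types 1, 2 and 3, against 92, 161 and 442 in mutants 1, 2 and 3 (log2 fold change 1.52, edgeR adjusted p = 0.014). *Pdgfrb* had 41, 61 and 5 against 6, 21 and 7 and overlapped (-1.45, edgeR adjusted p = 0.17). *Prrx1*, not tested, had 8, 1 and 0 against 3, 15 and 12. Of 11 neural crest and enteric nervous system genes, 6 were tested, at 20.3 to 22.4 and 17.5 to 30.0 CPM. No gene of these lists was at 0 in all libraries. The part of mesenchymal or neural crest reads in the values of *Sox13* and of the SOX genes with lower counts in the mutants was not tested.

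Among the SOXF genes, *Sox18* (ENSMUSG00000046470, minus strand, chr2:181404541-181406345) had 44, 73 and 20 raw counts in wild types 1, 2 and 3, against 1, 5 and 0 in mutants 1, 2 and 3. Every mutant library was below every wild type library, although the wild type libraries differed among themselves. The normalized means were 42.8 ± 24.6 and 2.12 ± 2.82 (log2 fold change -4.25, SE 0.86, adjusted p = 0.0021 by edgeR). Over summed counts, the mutant level was 4.98% of that in wild types (exact 95% counting interval, 1.79% to 11.1%). Its mean count was under 50, so it was not called. The log2 fold change was -3.75 with wild type 2 left out (adjusted p = 0.0217). With mutant 1, 2 or 3 left out it was -3.93, -6.03 and -3.71, with an adjusted p of 0.0135, 0.0021 and 0.009.

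*Sox18* is known from endothelium, and 13 endothelial marker genes were therefore counted in the same libraries. *Cdh5*, *Kdr*, *Tek*, *Emcn* and *Cldn5*, which mark endothelial cells, had 0 raw counts in all 6 libraries, as did the SOXF gene *Sox7*. Other genes of the list were detected. *Esam*, 1 of 2 tested, had 14, 28 and 15 raw counts in wild types 1, 2 and 3, against 15, 22 and 8 in mutants 1, 2 and 3. *Plvap* had 4, 2 and 0 against 0, 0 and 0, and *Tie1* had 0, 3 and 1 against 1, 0 and 2. The part of endothelial reads in the values of *Sox18* was not tested. *Pecam1* had 0, 0 and 12 raw counts in wild types 1, 2 and 3, against 20, 0 and 3 in mutants 1, 2 and 3. The summed level of the list was 63.2 to 78.4 CPM for wild types and 71.6 to 76.3 for mutants, and nearly all of it was *Egfl7*, with 1298 to 1581 raw counts in every library. *Sox17* (ENSMUSG00000025902, minus strand, chr1:4481009-4486494), which directs endoderm formation in the early embryo, had 5 raw counts in wild type 1 and 0 in the other 5 libraries. A count of 0 in a library allows up to 3 counts, so a difference in *Sox17* was not detectable at this depth.

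*Sox21* (ENSMUSG00000061517, minus strand, chr14:118632454-118636252) had 19, 30 and 30 raw counts in wild types 1, 2 and 3, against 0, 2 and 4 in mutants 1, 2 and 3. The groups did not overlap. The normalized means were 24.8 ± 6.02 and 2.18 ± 2.21 (log2 fold change -3.45, SE 0.85, adjusted p = 0.0069 by edgeR). The mutant level was 8.63% of that in wild types (exact 95% counting interval, 3.07% to 19.6%). Like *Sox18* it was under the mean count set for a call. The adjusted p passed 0.01 in no fit that left out a library, at 0.0189, 0.035 and 0.0227 without wild type 1, 2 and 3 and at 0.0368, 0.0366 and 0.0139 without mutant 1, 2 and 3. The log2 fold change was -2.88 without mutant 1 and -4.40 without mutant 3. Of its exon bases, 18.8% also lie in exons of the antisense gene *Gm4675*. The cDNA was amplified by PCR without molecular identifiers, so the counting intervals cover counting error only.

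**Figure D3:**
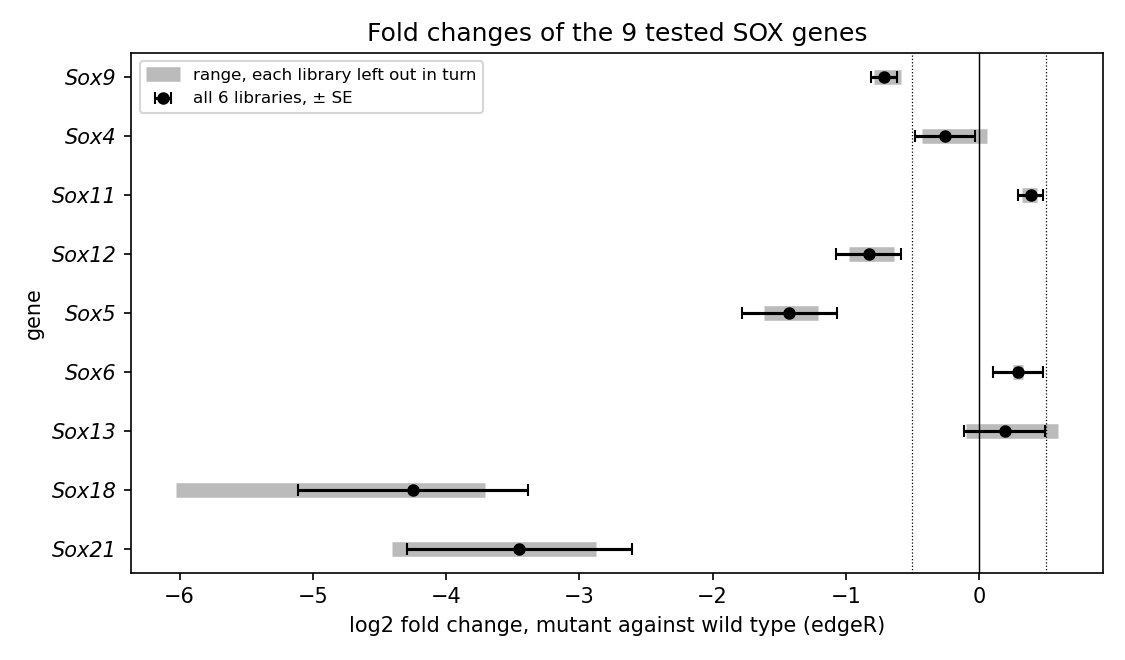
Log2 fold changes, mutant against wild type, of the 9 tested SOX genes from edgeR (points, ± SE) with the range over 6 fits that each left out 1 library (grey bars). Dotted lines mark 0.5 in both directions. *Sox9*, *Sox12*, *Sox5*, *Sox18* and *Sox21* stay below -0.5, *Sox11* and *Sox6* stay above 0, and the bars of *Sox4* and *Sox13* cross 0.

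Further SOX genes were at or near the limit of detection. *Sox1*, *Sox7*, *Sox14* and *Sry* had 0 raw counts in all libraries, and *Sox3*, *Sox15* and *Sox30* had at most 7 in any library. *Sox8*, a SOXE gene like *Sox9*, had 22, 0 and 6 raw counts in wild types 1, 2 and 3, against 0, 1 and 10 in mutants 1, 2 and 3. *Sox10*, the SOXE gene of neural crest cells, had 0, 8 and 0 in the wild types, against 3, 1 and 16 in mutants 1, 2 and 3, again highest in mutant 3. None of these 9 genes passed the filter on low counts. *Sox9* was thus the SOXE gene with nearly all of the reads in every library.

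The signalling pathways known to act on *Sox9* were described from a list of 19 genes, of which 16 were tested, 1 was called higher and 5 lower, beside 2.78% and 5.83% of all tested genes. The median log2 fold change was -0.49, and that of all tested genes -0.04. The lower calls include *Tcf7l1*, the deleted gene, and *Shh*, whose locus carries Cre. Without both, an omission made after the values were seen, 14 genes were tested, 1 was called higher and 3 lower, and the median was -0.39. The called genes were *Rbpj*, the DNA-binding partner of Notch, higher in the mutants, and *Tcf7l1*, *Shh*, *Ihh*, *Etv4* and *Fgfr2*, lower. *Rbpj* rose from 206 ± 45.3 to 399 ± 39.3 counts (log2 fold change 0.95, adjusted p = 0.0017). *Ihh*, a Hedgehog ligand, fell from 2668 ± 270 to 1285 ± 78.3 (log2 fold change -1.05, adjusted p = 1.0e-06). *Etv4*, a target of FGF signalling, fell by 0.77 and *Fgfr2*, an FGF receptor, by 0.67 on the log2 scale. *Hes1*, a Notch target (log2 fold change -0.45, adjusted p = 0.0013), and *Ctnnb1*, which encodes β-catenin (-0.33, adjusted p = 0.0036), were past the adjusted p but under the fold change set for a call. Of the other TCF/LEF genes, *Tcf7* had a log2 fold change of -0.16 and *Tcf7l2* of -0.32 (adjusted p = 0.62 and 0.043), and *Lef1* had 3 raw counts in mutant 2 and 0 elsewhere.

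In the adult crypt base, SOX9 is found in cells that express a known set of progenitor genes. Of 13 such genes, all were tested, 1 was called higher and 2 lower, beside 2.78% and 5.83% of all tested genes. The median log2 fold change was -0.25, and that of all tested genes -0.04. The higher gene was *Olfm4* (log2 fold change 1.72), and the lower ones were *Smoc2* (-0.94, adjusted p = 0.0071) and *Tnfrsf19* (-1.25, adjusted p = 0.0022). *Tnfrsf19*, which encodes a receptor of the TNF family, fell from 204 ± 61.4 to 85.7 ± 10.2 counts. *Axin2*, a WNT target, averaged 26.6 in the wild types and 22.3 in the mutants (log2 fold change -0.25, adjusted p = 0.77). DESeq2 called 3 genes of the list lower in place of 2, beside 789 lower of the 17112 genes it was given. The lists were written with earlier results of these libraries known, so their counts are descriptions.

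**Figure D4:**
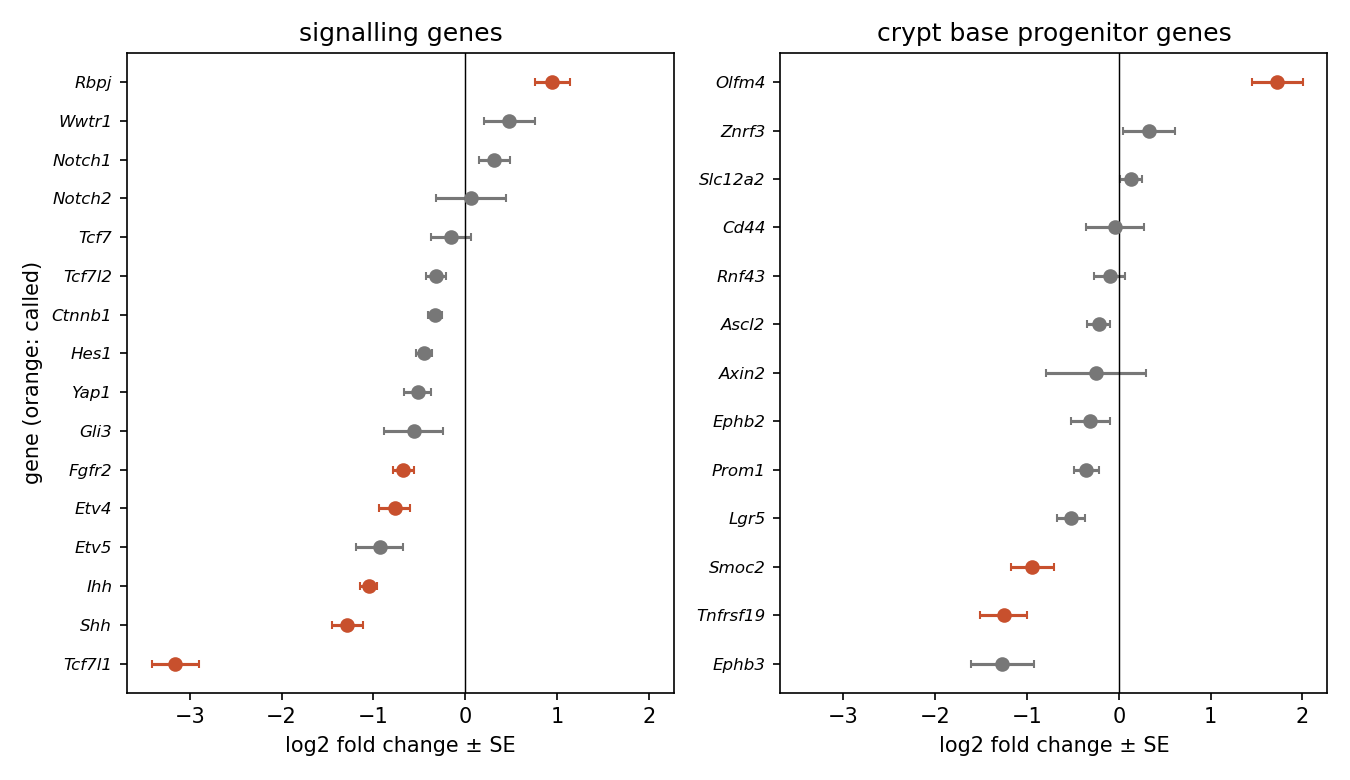
Log2 fold changes ± SE (edgeR, mutant against wild type) of the tested genes of 2 lists, signalling genes that act on *Sox9* (left) and progenitor genes of the crypt base (right), with called genes in orange and others in grey. *Rbpj* and *Olfm4* are the called genes on the higher side, and *Tcf7l1*, at -3.16, is the lowest of the left list.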

How the data were processed

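Read counts of 3 mutant and 3 wild type libraries were analysed, each made from 500 sorted EpCAM-positive cells. The authors made cDNA with a SMARTer kit, mapped the reads to mm9 with STAR 2.5.2b, counted uniquely mapping reads on UCSC gene models with featureCounts 1.5.1 and deposited these raw counts for each library. Their own test used DESeq2 1.18.1 with an RPKM minimum, for which a mean normalized count of 50 was used here. The test was that of edgeR 4.0.16, run under R 4.3.3 (TMM, filterByExpr with a minimum count of 10, quasi-likelihood test on genotype, Benjamini-Hochberg adjustment over all 12501 tested genes). Whether libraries came from separate litters is not stated, so p-values measure the spread between these libraries.

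The authors' counts are reads and not molecules. RPKM and the length correction used the longest transcript of each gene in GENCODE vM1 on mm9, which gives a length for 95.0% of the tested genes. Named were the 10 SOX genes, the targeted gene, the Cre locus, the genes most like *Sox9* and called genes of lists, with members of lists that a sentence on low or absent counts needed. *Krt18*, *Etv4*, *Fgfr2*, *Egfl7*, *Esam*, *Tie1*, *Plvap*, *Axin2*, *Hes1*, *Ctnnb1*, *Tcf7*, *Tcf7l2*, *Tfam*, *Dcn*, *Vim*, *Col3a1*, *Pdgfra*, *Pdgfrb*, *Prrx1*, *Ednrb*, *Acta2*, *Hbb-y*, *Neurod1*, *Neurog3*, *Spdef*, *Atoh1* and *Pou2f3* were named after their values were seen. The SOX genes, the lists and the tests were chosen with earlier results of these data known. The alternatives were DESeq2 1.42.0, RLE or no composition scaling, other filters and thresholds, a loess length correction (span 0.5), a block for replicate number, and fits that left out 1 library each. Counts were also simulated for 12501 genes. Of the genes simulated as changed, edgeR recovered 85.6% at an absolute log2 fold change of 1 and 96.4% at 2. These shares were not split by mean count or by spread between libraries. They do not describe *Sox18* and *Sox21*, which were under the mean count set for a call. They also need not hold for *Sox5*, whose call was lost in every fit that left out a library. Figures were drawn with matplotlib 3.10.9.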

Additional observations from a re-analysis of the deposited data

How the results depend on the processing

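Over the 9 tested SOX genes and *Tcf7l1*, 119 of 128 fits under another setting kept the direction and the called or uncalled state. The call was lost in 7, and the direction changed in 2. Only *Sox9*, *Sox5* and *Tcf7l1* had a call to lose, so the tally says little of the other genes. *Sox18* and *Sox21* were under the mean count set for a call and were bound to stay uncalled in these fits. The adjusted p reached 0.043 for *Sox11*, 0.022 for *Sox18* and 0.037 for *Sox21* in fits tallied as kept. The call of *Sox5* was lost with the gene-length correction (log2 fold change -1.30) and in each fit without a library (-1.62 to -1.21). Without wild type 2 the log2 fold change of *Sox4* was 0.057 (range without a library -0.43 to 0.057), and without mutant 3 that of *Sox13* was -0.096 (-0.096 to 0.59). The number of SOX genes called lower was 1 with the length correction and 1 in each fit without a library, but 4 with no minimum mean count, and 1 was called higher with no minimum fold change. Of all genes, 200 were higher with library size as the only scaling and 902 with no minimum fold change, and 1178 were lower at an adjusted p under 0.05. Without a library 260 to 516 were higher and 405 to 867 lower, against 348 and 729. The fewest were lower without wild type 1 (405), wild type 2 (406) and mutant 2 (463). Of the calls, 32.3% were higher, 17.3% with library size as the only scaling and 44% with the length correction. With library size as the only scaling the median of all genes moved from -0.04 to -0.15 on the log2 scale. Under it *Sox9* was at -0.82 and *Sox11* at 0.28.

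Replicate numbers are shared between the groups but did not pair the libraries. The deviations of same-numbered libraries from their group means had correlations of 0.00971, -0.0449 and -0.0179, and 1 of 3 wild type libraries correlated best with its own number. With the replicate block, 339 genes were higher and 691 lower, and *Sox9* had a log2 fold change of -0.70 and *Sox5* kept its call. Leaving out a library lets the group of 2 share the spread of the group of 3. The filter at a mean of 50 counts gave no value for *Sox18* and *Sox21*. *Sox17* was kept only in the fits without a low-count filter, DESeq2 among them, and no value from them is given here. At 6 or fewer raw counts in all mutant libraries together, depth limits *Sox17*, *Sox18* and *Sox21*.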

Other observations

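Of 21 genes with an HMG box outside the SOX family, 20 were tested. Of these, 2 were called lower, *Tcf7l1* and *Tox3*, and 0 higher, beside 5.83% and 2.78% of all tested genes. DESeq2 also called 0 higher and 2 lower, beside 410 higher and 789 lower of the 17112 genes it was given. At an unadjusted p under 0.05 from edgeR, 3 were higher and 8 lower, without a share of all genes to set beside them. *Tox3*, of the TOX subfamily, fell from 342 ± 52.2 to 208 ± 9.64 counts (-0.71 on the log2 scale, edgeR adjusted p = 0.007). *Tfam*, the mitochondrial DNA packaging factor, averaged 2977 ± 124 counts in the wild types against 3727 ± 113 in the mutants (0.32 on the log2 scale, adjusted p = 0.0039), under the fold change set for a call. The median of the list was -0.16.

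Of 11 cartilage genes that SOX9, SOX5 and SOX6 are known to bind, 2 were tested. *Hapln1*, which encodes a link protein of the extracellular matrix, had 223, 304 and 426 raw counts in wild types 1, 2 and 3, against 95, 104 and 121 in mutants 1, 2 and 3. It was called lower, with a log2 fold change of -1.39 and an adjusted p of 7.3e-04. *Col2a1* had at most 10 raw counts in a library, and *Acan* and *Matn1* had 0 in all.

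Of 10 genes of secretory and tuft cells placed downstream of SOX4 in the adult gut, 4 were tested. Of these, 0 were called higher and 0 lower, beside 2.78% and 5.83% of all tested genes, and their median log2 fold change was -0.55. *Neurod1*, an enteroendocrine factor, had 106, 121 and 60 raw counts in wild types 1, 2 and 3, against 0 in every mutant library. Its log2 fold change was -9.49 (edgeR adjusted p = 6.8e-06), but it was under the mean count set for a call. *Spdef* had 99, 133 and 127 raw counts in the wild types, against 24, 62 and 43 in mutants 1, 2 and 3 (log2 fold change -1.29, edgeR adjusted p = 0.013). *Neurog3* had 3, 179 and 90 in the wild types, against 0, 6 and 2 in mutants 1, 2 and 3. *Atoh1* (log2 fold change 0.18) and *Pou2f3* (0.26), the tuft cell factor, had adjusted p values of 0.82 and 0.64. Of 9 posterior foregut genes that are active with SOX17, 8 were tested. *Pdx1* (log2 fold change -2.09) and *Foxa2* (-2.94) were called lower, beside 5.83% of all tested genes. The median of the list was -0.59, and that of all tested genes -0.04. Of 10 blood genes, 5 were at 0 in all libraries, among them the globin genes *Hba-a1*, *Hba-a2*, *Hbb-b1* and *Hbb-b2*. Only uniquely mapping reads were counted, so these zeros need not mean that globin RNA was absent. The 1 tested gene, the globin gene *Hbb-y*, had 22, 30 and 21 raw counts in wild types 1, 2 and 3, against 4, 5 and 6 in mutants 1, 2 and 3 (log2 fold change -2.07, edgeR adjusted p = 0.028). The summed level was 1.02 to 2.82 CPM for wild types and 0.436 to 0.85 for mutants.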
